A study of Mus musculus with 2 samples.

Results

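The Ly6 surface antigens are small, cysteine-rich proteins, most of them held on the cell surface by a lipid anchor, and several of them give the antibody epitopes by which mouse blood cells are sorted. Their levels were examined in tumor-associated neutrophils (TANs) sorted for 1 of them, Ly6G. The 6 members Ly6g, Ly6c1, Ly6c2, Ly6a, Ly6e and Ly6d were taken as the rows of the count matrix that carry these symbols, and all 6 were found among its 31053 genes. They were taken by symbol and not by level, although earlier results of these data were known.

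The libraries came from subcutaneous tumors of LLC cells, a mouse lung carcinoma line, in Smad3-WT (Smad3+/+) and Smad3-KO (Smad3-/-) mice of the C57BL/6 strain aged 8 to 12 weeks. The Smad3-KO allele is a germline one, deleted for exon 8 and disrupted in exon 7, so the blood cells and the stroma of the host lack Smad3 alike, while the inoculated LLC cells carry their own genome. CD11b+Ly6G+ cells from 8 tumors were pooled per genotype before encapsulation with a 5′ kit, which leaves 1 library for each genotype. There is thus no replicate error and no test of genotype, and all intervals below are 95% intervals of counting error only.

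Ly6G is known as the antigen that marks mouse granulocytes, and its RNA is made mostly while neutrophils mature in the marrow. The Ly6C antigen comes from a pair of near-identical genes, Ly6c1 and Ly6c2, and is used to tell inflammatory monocytes from patrolling ones and memory CD8 T cells from naive ones. Ly6a encodes Sca-1, a marker of blood stem cells and of many stromal cells that interferons induce. Ly6e is likewise interferon-inducible and widely expressed, and Ly6d is known from early B cells and plasmacytoid dendritic cells.

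The 6 genes lie within 397071 bases of chromosome 15 in the mm10 build, and all are protein-coding. From low to high coordinates, Ly6d spans chr15:74762056-74763620 on the minus strand and Ly6e spans chr15:74955051-74959905 on the plus strand. Ly6a (chr15:74994877-74998031), Ly6c1 (chr15:75044018-75048830) and Ly6c2 (chr15:75108158-75111970) follow on the minus strand, and Ly6g (chr15:75155240-75159126) closes the run on the plus strand.

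The opening of the coding sequence is shown for Ly6c2, Ly6c1 and Ly6g because a 5′ library reads this end of the transcript and the counts of these genes rest on telling them apart. Each run holds the first 150 bases of the longest coding transcript in the mm10 annotation, from the start codon, and bases that differ from Ly6c2 are in capitals.
Ly6c2: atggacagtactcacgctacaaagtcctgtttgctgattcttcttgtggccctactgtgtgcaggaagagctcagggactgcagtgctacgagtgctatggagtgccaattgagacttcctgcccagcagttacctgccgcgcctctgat
Ly6c1: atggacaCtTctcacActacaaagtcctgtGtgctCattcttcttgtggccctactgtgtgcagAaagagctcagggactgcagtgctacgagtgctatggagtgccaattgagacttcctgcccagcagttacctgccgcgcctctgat
Ly6g: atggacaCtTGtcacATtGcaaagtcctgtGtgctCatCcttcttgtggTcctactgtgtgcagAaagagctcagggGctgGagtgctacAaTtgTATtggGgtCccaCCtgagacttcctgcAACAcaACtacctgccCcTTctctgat
Ly6c1 differed from Ly6c2 at 6 of these 150 bases, the last of them at base 65, and Ly6g at 31. Over the first 300 bases of the transcript, Ly6c1 and Ly6c2 were 89.4% identical and shared an unbroken stretch of 188 bases, and 46.9% of the 90-base windows of Ly6c1 also occurred in Ly6c2. A read that falls wholly inside that stretch cannot be assigned to either gene by its sequence. How such reads were counted or left out was not examined, so the levels of this pair carry that limit. No 90-base window was shared by any other pair of members, over the whole transcript or its first 300 bases. Over the whole aligned coding sequence, gaps counted, Ly6g and Ly6a were 83.2% identical and Ly6c1 and Ly6c2 80.9%, but the longest stretch that Ly6g and Ly6a shared was 35 bases. The coding sequences taken for Ly6c1 and Ly6c2 had 444 and 396 bases, so gaps enter their value, whereas those of Ly6g and Ly6a both had 405.

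The promoters of Ly6g, Ly6c1 and Ly6c2 are shown because Ly6g and Ly6c2 were both highest in the same cells, as described below, while Ly6c1 was not detected there. Each window runs from 250 bases before to 50 after the RefSeq start site in GRCm38.p6, 5′ to 3′ on the strand of the gene, and the capitals mark GAGGAAGT, a core of the sites that PU.1, a factor of myeloid cells, can bind. The windows are chr15:75155011-75155310 for Ly6g, chr15:75048788-75049087 for Ly6c1 and chr15:75111922-75112221 for Ly6c2.
Ly6g: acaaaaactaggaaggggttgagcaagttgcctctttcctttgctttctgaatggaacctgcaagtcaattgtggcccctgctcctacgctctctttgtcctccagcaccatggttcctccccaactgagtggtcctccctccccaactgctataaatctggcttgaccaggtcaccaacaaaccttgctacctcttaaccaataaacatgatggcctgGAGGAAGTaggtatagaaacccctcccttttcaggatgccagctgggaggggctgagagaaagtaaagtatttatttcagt
Ly6c1: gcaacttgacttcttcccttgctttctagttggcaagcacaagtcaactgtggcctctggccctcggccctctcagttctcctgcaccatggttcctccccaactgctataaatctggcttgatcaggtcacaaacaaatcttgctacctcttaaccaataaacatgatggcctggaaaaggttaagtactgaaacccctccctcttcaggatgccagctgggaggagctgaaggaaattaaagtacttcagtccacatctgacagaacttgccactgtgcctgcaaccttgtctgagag
Ly6c2: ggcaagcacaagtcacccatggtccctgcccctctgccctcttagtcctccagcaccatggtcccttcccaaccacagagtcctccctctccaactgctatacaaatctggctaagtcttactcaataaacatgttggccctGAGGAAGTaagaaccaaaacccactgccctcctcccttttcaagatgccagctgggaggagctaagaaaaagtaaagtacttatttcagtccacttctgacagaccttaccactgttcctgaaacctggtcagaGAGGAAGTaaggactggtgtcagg
GAGGAAGT occurred once in the Ly6g window, 31 bases before the start site, and at 2 places in the Ly6c2 window, 108 bases before the start site and 26 bases after it. It was not found in the Ly6c1 window on either strand, and 3.20% of 32851 promoter windows of this length held it on either strand. TATAAA was found in the windows of Ly6g and Ly6c1 and not in that of Ly6c2, and CCAAT in the same pair, against 13.6% and 37.4% of all windows. TTGCNNAA, a form of the C/EBP site, was found only in that of Ly6g, 232 bases before the start site on the minus strand, against 10.8% of all windows. No 2 of these matches overlapped, and they describe the letters only.

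The deposited matrix held 23951400 UMIs in 4116 barcodes for Smad3-WT and 4214290 UMIs in 2514 barcodes for Smad3-KO. After the quality filter of the study, 3520 Smad3-WT cells with a median of 1318.5 UMIs and 2433 Smad3-KO cells with a median of 1199 UMIs remained. Cells were clustered without any Ly6 gene and the 13 clusters were named from marker genes as 9 classes, called "like" since they were not matched to an outside reference. The study filtered its TANs further by the neutrophil markers S100a9, S100a8, Csf3r and Il1rn. Here a UMI of any of these was asked for in 1 alternative only. Against the label of neutrophils, only 1803 Smad3-WT and 1005 Smad3-KO cells were neutrophil-like, with 10 or 11 of 11 neutrophil markers in each of their 3 clusters. The 10 leading genes of cluster 2, which holds 857 of these Smad3-KO cells, included no neutrophil marker and 1 immature neutrophil marker, Lcn2, so values of the class are given with those of its clusters. The 2 libraries shared 73 barcodes, which 24 filtered Smad3-WT cells and 46 filtered Smad3-KO cells carried. Of the 26 LLC carcinoma-like cells of Smad3-KO, 19 carried such a barcode, and their median was 605.5 UMIs against 13213 in Smad3-WT, so this class was not compared between the libraries. Levels below are UMIs of a gene per 1000000 UMIs of the group (CPM), which a 5′ kit leaves unscaled for length, so that they are compared between cells and not between genes.

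At least 1 UMI of a member was seen in 2246 of 3520 Smad3-WT cells (63.8%) and in 1491 of 2433 Smad3-KO cells (61.3%). Neutrophil-like cells, the shallowest class of both libraries but for the LLC carcinoma-like cells of Smad3-KO, had the lowest shares, with 38.1% in Smad3-WT and 26.7% in Smad3-KO. All 46 fibroblast-like cells of Smad3-WT held one.

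Ly6g, the gene of the sort, was found in few of the sorted cells. A UMI of Ly6g was seen in 38 of 3520 Smad3-WT cells and in 115 of 2433 Smad3-KO cells, or 1.08% and 4.73%. Most of the Smad3-KO signal lay in 63 immature neutrophil-like cells, led by the granule genes Camp, Ngp and Ltf, which carried 162 of the 253 Ly6g UMIs of that library (64.0%). There Ly6g stood at 1084 CPM (interval 923 to 1264) and was seen in 47 of 63 cells (74.6%, interval 62.1 to 84.7). Ly6g was itself among the genes leading this cluster, although it took no part in the clustering. Only 1 Smad3-WT cell fell in it, with no Ly6g UMI, so the class could not be compared between the genotypes.

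In neutrophil-like cells, the largest class of either library, Ly6g was low. It reached 23.8 CPM in Smad3-WT (39 UMIs, interval 16.9 to 32.5) and 69.4 CPM in Smad3-KO (78 UMIs, interval 54.9 to 86.6). The level in Smad3-KO was thus 2.92 times that in Smad3-WT (interval 1.96 to 4.40). It ran from 2.27 to 9.31 over the alternatives, with 9.31 at resolution 0.1 and 7.92 where the immature cells were joined. A UMI was seen in 29 of 1803 Smad3-WT cells (1.61%, interval 1.08 to 2.30) and in 55 of 1005 Smad3-KO cells (5.47%, interval 4.15 to 7.06), whose median depths were 742 and 991 UMIs. With every cell thinned to 500 UMIs, the shares were 0.776% and 2.99%.

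Among classes that should lack the gene, B-like cells of Smad3-KO had a Ly6g UMI in 9 of 682 cells (1.32%, median depth 1344 UMIs) and T-like cells of Smad3-KO in 2 of 421 (0.475%, median depth 1307 UMIs). Those 9 UMIs amounted to 6.98 CPM, and after thinning no B-like cell held one. Of these UMIs, 8 lay in B-like cluster 10 (8 of 199 cells, 4.02%, median depth 2135 UMIs) and 1 in B-like cluster 6 (1 of 483 cells, 0.207%, median depth 1197 UMIs). The share in Smad3-WT neutrophil-like cells thus lay between those of 2 B-like clusters. Within the Smad3-WT library, macrophage-like cells held 7 UMIs (1.93 CPM) in deeper cells, with a median of 5374 UMIs. Monocyte-like cells of Smad3-WT held no Ly6g UMI in 518 cells, where 3 cells would have been 0.579%.

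RNA set free from 1 class alone would keep its genes in 1 ratio in every other class, and the members were read against that. In B-like cells of Smad3-KO, Ly6g stood at 0.101 of its neutrophil-like level, while the 11 neutrophil markers stood at 0.107 to 0.176 of theirs. In that library 64.0% of Ly6g UMIs lay in the immature neutrophil-like cells, so Ly6g and the markers need not share 1 source. The Smad3-KO quotient therefore cannot place the source of these UMIs. In macrophage-like cells of Smad3-WT, the quotient was 0.0813 for Ly6g and 0.0724 to 0.114 for the markers. In LLC carcinoma-like cells of Smad3-WT, 3 Ly6g UMIs (interval 0.159 to 2.26 CPM) gave a quotient of 0.0324, beside 0.0110 to 0.0229 for the markers. So few UMIs cannot place that quotient above or within the range of the markers. Ly6g was at 0 in the monocyte-like, dendritic-like, T-like and fibroblast-like cells of that library. As its neutrophil-like level was only 23.8 CPM, these counts of 0 cannot be told from the marker quotients. In immature neutrophil-like cells the quotient was 15.6 for Ly6g and 0.219 to 6.52 for the same markers.

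The Ly6g level also differed between the clusters of the neutrophil-like class, which the libraries fill unevenly. Cluster 1, led by AC110211.1, Ifit3b and Acta2, and cluster 3, led by Mmp9, Cxcr2 and Il1r2, held 1206 and 572 of the Smad3-WT cells. Cluster 2, led by Il1a, Csf3 and Tnfaip3, held 857 of the 1005 Smad3-KO cells and 25 Smad3-WT cells. Clusters 1 and 2 were thus each filled mostly by 1 library, and what sets them apart may belong to the library.
Ly6g stood at 26.5 CPM in cluster 1 of Smad3-WT and at 50.1 CPM in cluster 2 of Smad3-KO. In cluster 3, the only one with over 100 cells from each library, it was 16.8 CPM in Smad3-WT (7 UMIs, 572 cells) and 337 CPM in Smad3-KO (27 UMIs, 109 cells), a ratio of 20.04 (interval 8.51 to 54.5). The median depths of these cells were 650 and 638 UMIs. Of the 78 neutrophil-like Ly6g UMIs of Smad3-KO, 27 therefore came from 109 cells.

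**Figure D1:**
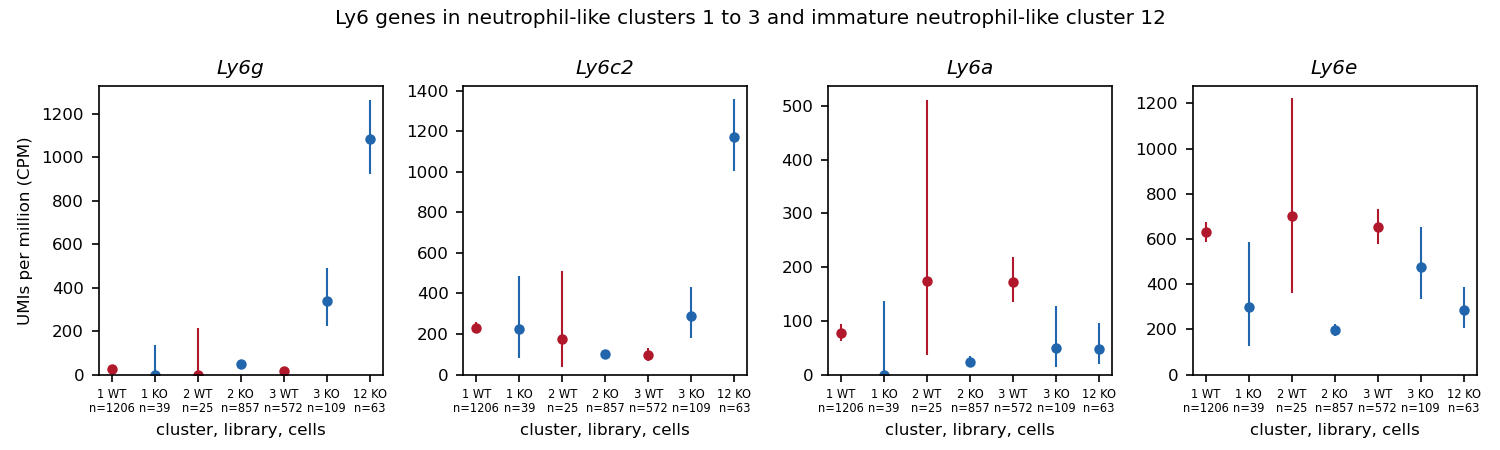
Levels of Ly6g, Ly6c2, Ly6a and Ly6e (CPM of summed UMIs, vertical axes from 0) in neutrophil-like clusters 1 to 3 and immature neutrophil-like cluster 12, by library (red Smad3-WT, blue Smad3-KO, number of cells under each point, bars 95% Poisson intervals). Ly6g and Ly6c2 were highest in cluster 12, at 1084 and 1171 CPM, whereas Ly6e was highest in Smad3-WT points and Ly6a stayed under 200 CPM throughout.

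CD11b, the other antigen of the gate, is encoded by Itgam, a gene named here after its values were seen. Itgam stood at 333 CPM in Smad3-WT and 188 CPM in Smad3-KO neutrophil-like cells, and at 361 CPM in the immature neutrophil-like cells. It was also present at 453 CPM in monocyte-like cells of Smad3-WT, and stood at 52.0 CPM in B-like and 10.6 CPM in T-like cells of Smad3-KO. Of the Itgam UMIs in B-like cells of Smad3-KO, 62 lay in cluster 10 (124 CPM, in 47 of 199 cells) and 5 in cluster 6 (6.33 CPM), so cluster 10 held most of both gate transcripts found in that class.

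Ly6c2 was, like Ly6g, highest in the immature neutrophil-like cells of Smad3-KO, at 1171 CPM (175 UMIs, interval 1004 to 1357), and was seen in 51 of the 63 cells. Of the 47 cells there with a Ly6g UMI, 39 (83.0%) also held a Ly6c2 UMI, against 75.0% of the cells without one. The next level outside the LLC class belonged to monocyte-like cells of Smad3-WT, at 781 CPM (1273 UMIs, interval 738 to 825), followed by T-like cells of Smad3-WT at 715 CPM (interval 592 to 856), and the intervals of this pair overlapped. Monocyte-like cells carried 53.9% of all Ly6c2 UMIs of the Smad3-WT library.
Inside that class the receptor gene Ccr2, which inflammatory monocytes use to leave the marrow, went with Ly6c2. The 375 Smad3-WT cells with a Ccr2 UMI held Ly6c2 at 897 CPM (interval 845 to 950) and the 143 without one at 372 CPM (interval 312 to 441), with median depths of 3047 and 2355 UMIs. The 18 monocyte-like cells of Smad3-KO were too few for a comparison and held Ly6c2 at 730.5 CPM (29 UMIs in 9 cells).

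In neutrophil-like cells, Ly6c2 stood at 195 CPM in Smad3-WT (320 UMIs) and 117 CPM in Smad3-KO (131 UMIs), a ratio of 0.597 (interval 0.483 to 0.734). The median ratio of all 5878 genes with at least 20 UMIs in these cells was 0.736, and median-of-ratios scaling moved all ratios up by 0.46 on the log2 scale, to 0.819 for Ly6c2. The direction of Ly6c2 turned where the immature neutrophil-like cells were counted with the class, to 1.23, and where fewer clusters were made at resolution 0.1, to 1.12. It also differed by cluster, with 230 CPM in cluster 1 of Smad3-WT and 100.3 CPM in cluster 2 of Smad3-KO, but 96.2 CPM in Smad3-WT and 287 CPM in Smad3-KO within cluster 3. Neither a lower nor a higher Ly6c2 in Smad3-KO neutrophils can therefore be stated from this pair of libraries.

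In T-like cells, Ly6c2 was highest where a CD8 UMI was seen. The 109 Smad3-KO cells with a UMI of Cd8a or Cd8b1 held 164 Ly6c2 UMIs, or 709 CPM (interval 604 to 826), in 39 cells. The 64 Smad3-KO cells with a Cd4 UMI and no CD8 UMI held none, where 3 UMIs would have been 33.2 CPM. The 248 Smad3-KO cells with neither held 73 UMIs, or 215 CPM, in 17 cells. The median depths of the 3 sets were 1682, 1294 and 1196 UMIs. The 21 Smad3-WT cells with a CD8 UMI stood at 1018 CPM (104 UMIs), 44 of which came from 1 cell.
Over all T-like cells, Ly6c2 was 715 CPM in 54 Smad3-WT cells and 358 CPM in 421 Smad3-KO cells, so that Smad3-KO stood at 0.501 of Smad3-WT (interval 0.400 to 0.631). Among the cells with a CD8 UMI, the ratio was 0.696 (interval 0.541 to 0.899). These sets held 21 of the 54 Smad3-WT cells but 109 of the 421 Smad3-KO cells. In Smad3-WT, 1 cell with a CD8 UMI held 44 of the 118 Ly6c2 UMIs of T-like cells, and the intervals treat UMIs as independent. Neither ratio was computed without that cell, so the size of both rests partly on it. Among the cells with a CD8 UMI, where it held 44 of 104 UMIs, the direction is therefore not settled.

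Ly6c2 in dendritic-like cells stood at 155 CPM in Smad3-WT (140 UMIs) and 509 CPM in Smad3-KO (182 UMIs), a ratio of 3.28 (interval 2.61 to 4.11). From 8 Smad3-KO cells came 82 of these UMIs, those cells being the ones with a UMI of Siglech, a marker of plasmacytoid dendritic cells. Without the cells that held a Siglech UMI, the levels were 155 and 303 CPM and the ratio was 1.95 (interval 1.496 to 2.54), which is a change of over 1.5 times. One of the remaining Smad3-KO cells alone held 37 of their 100 UMIs. The larger dendritic-like cluster rested on 3 of 10 dendritic markers, and as many monocyte markers passed there.
Elsewhere, Ly6c2 stood at 218 CPM in B-like cells of Smad3-KO (281 UMIs, 40 of them in 1 cell), at 122 and 160 CPM in macrophage-like cells of Smad3-WT and Smad3-KO, and at 55.5 and 67.8 CPM in fibroblast-like cells. The intervals of neighbors overlapped from the B-like cells down to the fibroblast-like ones, and the ratio was 1.31 (interval 0.804 to 2.03) in macrophage-like and 1.22 (interval 0.641 to 2.38) in fibroblast-like cells, both of which hold 1.

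Ly6c1 marked other cells than its near-identical neighbor. It was highest in fibroblast-like cells, with 1240 CPM in Smad3-WT (402 UMIs, interval 1121 to 1367) and 933 CPM in Smad3-KO (344 UMIs, interval 837 to 1037), and in LLC carcinoma-like cells of Smad3-WT, with 1047 CPM (4069 UMIs, interval 1016 to 1080). A UMI was seen in 37 of 46 and 48 of 67 fibroblast-like cells and in 260 of 323 LLC carcinoma-like cells. The fibroblast-like level of Smad3-WT lay above the others, and the intervals of the LLC carcinoma-like and the Smad3-KO fibroblast-like cells overlapped. In the fibroblast-like cells the ratio of Smad3-KO to Smad3-WT was 0.753 (interval 0.650 to 0.872), and 0.827 (interval 0.708 to 0.964) without the cells whose barcode occurred in both libraries.

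The share of Ly6c1 in the UMIs of the pair split the classes more sharply than either level. Ly6c1 made up 98.8% of 4117 UMIs in LLC carcinoma-like cells of Smad3-WT, and 95.7% and 93.2% in fibroblast-like cells of Smad3-WT and Smad3-KO. It made up 5.84% of 1352 UMIs in monocyte-like cells, 6.71% of 343 in neutrophil-like cells of Smad3-WT and none of 175 in immature neutrophil-like cells, which allows up to 2.09% by the exact interval. At either end, nearly all UMIs of the pair were thus given to 1 gene in spite of the shared stretch. The 12 Ly6c1 and 22 Ly6c2 UMIs of the LLC carcinoma-like cells of Smad3-KO departed from this, and all 22 of the latter came from 1 cell.

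**Figure D2:**
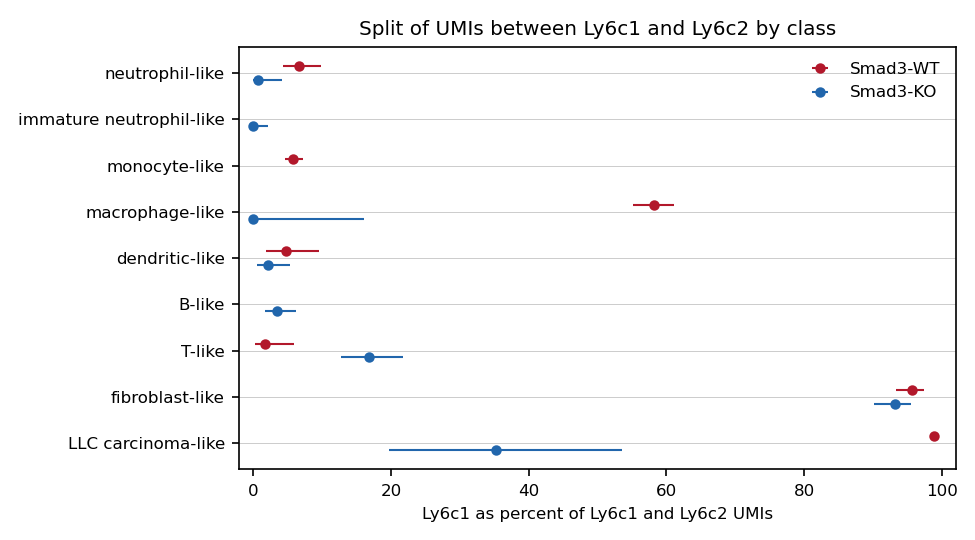
Ly6c1 UMIs as a percentage of Ly6c1 and Ly6c2 UMIs together (horizontal axis) by class and library (red Smad3-WT, blue Smad3-KO, bars exact 95% intervals, groups with at least 20 cells and 20 UMIs). Fibroblast-like cells lay at 93.2% and above and immature neutrophil-like cells at 0, and macrophage-like cells of Smad3-WT lay between them at 58.2%.

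Macrophage-like cells of Smad3-WT were the exception, with Ly6c1 at 169 CPM (613 UMIs) in 90 of 575 cells and 58.2% of the UMIs of the pair. Of these 90 cells, 62 held at least 2 Ly6c1 UMIs, and 1 cell held 64. The level was 0.162 of that in LLC carcinoma-like cells, while the 5 LLC markers tested stood in the macrophage-like cells at 0.133 to 0.222 of theirs. These quotients are of summed UMIs and do not show how the UMIs were spread over cells, and their source was not tested. The 48 macrophage-like cells of Smad3-KO held no Ly6c1 UMI, at least 7.41-fold lower when set at 3 UMIs, a bound that treats UMIs as independent. Their median depth was 1649.5 UMIs, against 5374 in Smad3-WT. After thinning, 19 of 575 Smad3-WT cells (3.30%) held a Ly6c1 UMI and none of the 48, where the interval reached 7.40%. A lower share of positive cells in Smad3-KO is therefore not settled at equal depth. In fibroblast-like cells the quotient was 1.18 for Ly6c1 against 0 to 0.241 for the LLC markers. The same reading in neutrophil-like cells of Smad3-WT gave 0.0134 for Ly6c1 and 0.0169 to 0.0405 for the markers. Neutrophil-like cells held 23 Ly6c1 UMIs in Smad3-WT (14.0 CPM, interval 8.90 to 21.1) and 1 in Smad3-KO (0.890 CPM), a ratio of 0.0634 (interval 0.00154 to 0.390). The quotient of 0.0134 lay below those of the markers, but it rests on these 23 UMIs and is given without an interval. The part of LLC RNA in these UMIs was not tested. In monocyte-like cells of Smad3-WT, 79 Ly6c1 UMIs (48.5 CPM) lay in 7 cells, at 0.0463 of the LLC level against 0.0275 to 0.0599 for the markers. B-like cells of Smad3-KO held 10 Ly6c1 UMIs and the dendritic-like cells 7 in Smad3-WT and 4 in Smad3-KO.

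T-like cells of Smad3-KO held 48 Ly6c1 UMIs in 29 of 421 cells, or 72.6 CPM, against 2 UMIs in 54 Smad3-WT cells, or 12.1 CPM, a ratio of 5.99 (interval 1.57 to 50.9). Of these 48 UMIs, 42 lay in the 248 cells with neither a CD8 nor a Cd4 UMI, 5 in the Cd4 set and 1 in the CD8 set. Of the 29 T-like cells of Smad3-KO with a Ly6c1 UMI and the 56 with a Ly6c2 UMI, 1 held both, and both Ly6c1-positive cells of Smad3-WT also held Ly6c2.

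Ly6a was highest in fibroblast-like cells, a known place of Sca-1. It stood there at 1946 CPM in Smad3-WT (631 UMIs, interval 1797 to 2104) and 1869 CPM in Smad3-KO (689 UMIs, interval 1732 to 2014), and was seen in 44 of 46 and 61 of 67 cells. The ratio of 0.961 had an interval of 0.861 to 1.07. The next level was 719 CPM in dendritic-like cells of Smad3-WT, and the intervals of neighbors in the order overlapped from there down to the LLC carcinoma-like cells of Smad3-WT at 419 CPM. Macrophage-like cells lay in that run, with 513 CPM in Smad3-WT and 457 CPM in Smad3-KO, and monocyte-like cells of Smad3-WT below it at 323 CPM. B-like cells of Smad3-KO held 713 CPM (920 UMIs) and carried 40.2% of all Ly6a UMIs of that library. Every Ly6c1-positive fibroblast-like cell of either library, 37 and 48 in number, also held a Ly6a UMI.

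Neutrophil-like cells were at the low end for Ly6a. They held 168 UMIs in Smad3-WT (103 CPM, interval 87.6 to 119) in 89 cells and 27 UMIs in Smad3-KO (24.0 CPM, interval 15.8 to 35.0) in 21 cells, a ratio of 0.234 (interval 0.150 to 0.353). The ratio was 0.321 under median-of-ratios scaling. Within cluster 3 it was 0.289 (72 against 4 UMIs, interval 0.0766 to 0.771). The immature neutrophil-like cells held 7 Ly6a UMIs, or 46.8 CPM. In the other classes compared, the ratio of Ly6a lay from 0.749 in T-like cells (interval 0.605 to 0.932) to 0.961 in fibroblast-like cells. Of the 230 Ly6a UMIs in dendritic-like cells of Smad3-KO, 81 lay in the 8 cells with a Siglech UMI. Without such cells, dendritic-like Ly6a stood at 718 CPM in Smad3-WT (interval 664 to 776) and 451 CPM in Smad3-KO (interval 382 to 530). In the latter, 44 of 149 UMIs came from 1 cell. In neutrophil-like cells of Smad3-WT, Ly6a stood at 0.200 of its macrophage-like level. The 10 macrophage markers stood there at 0.0112 to 0.293 of theirs, with a median of 0.0266. In Smad3-KO the quotient was 0.0526 for Ly6a and 0 to 0.134 for the markers, with a median of 0.00415. The part of macrophage RNA in the Ly6a count was not tested.

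Ly6e was seen in 2093 of 3520 Smad3-WT cells and 1249 of 2433 Smad3-KO cells, and in every class. Its highest level of a whole class, in monocyte-like cells of Smad3-WT, was 2155 CPM (3514 UMIs, interval 2085 to 2228), above B-like cells of Smad3-KO at 1944 CPM (2507 UMIs, interval 1869 to 2022). Of the B-like clusters of Smad3-KO, cluster 6 stood above the monocyte-like cells, at 2357 CPM (interval 2251 to 2466), and cluster 10 at 1293 CPM. From the B-like class to fibroblast-like cells of Smad3-WT at 1088 CPM, the intervals of neighbors in the order overlapped. Fibroblast-like cells of Smad3-KO followed at 792 CPM. Neutrophil-like cells of Smad3-WT at 637 CPM, immature neutrophil-like cells at 288 CPM and neutrophil-like cells of Smad3-KO at 219 CPM closed the order, and the intervals of the last pair overlapped.

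In neutrophil-like cells Ly6e was lower in the Smad3-KO library. There were 1043 UMIs in 576 of 1803 Smad3-WT cells and 246 UMIs in 172 of 1005 Smad3-KO cells, with a ratio of 0.344 (interval 0.298 to 0.395), and of 0.472 under median-of-ratios scaling. The shares of cells with a UMI were 31.9% and 17.1%, and 21.5% and 10.0% after thinning. Within cluster 3 the ratio was 0.728 with an interval of 0.504 to 1.03, which holds 1, whereas it was 0.281 (interval 0.157 to 0.553) in cluster 2 with its 25 Smad3-WT cells. The other classes did not show the same ratio, with 1.31 in macrophage-like (interval 1.13 to 1.496), 0.914 in T-like (interval 0.784 to 1.07), 0.729 in dendritic-like and 0.728 in fibroblast-like cells. Of the 218 Ly6e UMIs in macrophage-like cells of Smad3-KO, 39 came from 1 cell. Without barcodes found in both libraries, the macrophage-like ratio was 1.25 (interval 1.07 to 1.45). The difference between classes was not tested.

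In the Smad3-KO library, Ly6d was seen mostly in B-like cells. B-like cells of Smad3-KO held 1218 of the 1357 Ly6d UMIs of that library (89.8%), at 945 CPM (interval 892 to 999) in 412 of 682 cells (60.4%). Within the class it was 1240 CPM in cluster 6, led by Cd79a, Iglc2 and Mzb1, and 478 CPM in cluster 10, led by Igkc, Ighd and Vpreb3, where Ly6d was also among the leading genes. Only 3 Smad3-WT cells were B-like, of which 1 held 18 of the 41 Ly6d UMIs of that library. Another 18 lay in 2 of the 575 macrophage-like cells of Smad3-WT.

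The second place of Ly6d was a small set of dendritic-like cells. Of 112 Ly6d UMIs in dendritic-like cells of Smad3-KO, 106 lay in the 8 cells with a Siglech UMI, 7 of which were positive, and 6 lay in the other 95. All 5 Ly6d UMIs of dendritic-like cells of Smad3-WT lay in the 2 cells with a Siglech UMI. The same 8 Smad3-KO cells held Ly6c2 at 3034 CPM and Ly6a at 2997 CPM, against 303 and 451 CPM in the other dendritic-like cells. The level of Ly6d in all dendritic-like cells of Smad3-KO was 0.332 of that in B-like cells, while 9 B-cell markers stood there at 0 to 0.155 of theirs.
Neutrophil-like cells held 0 Ly6d UMIs in 1803 Smad3-WT cells, where 3 cells would have been 0.166%, and 2 in 1005 Smad3-KO cells. T-like cells of Smad3-KO held 2, and LLC carcinoma-like cells of Smad3-WT none in 323 cells. Fibroblast-like cells of Smad3-KO held 16 (43.4 CPM), at 0.0460 of the B-like level, within the 0.0185 to 0.687 of the B-cell markers, and those of Smad3-WT held none.

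**Figure D3:**
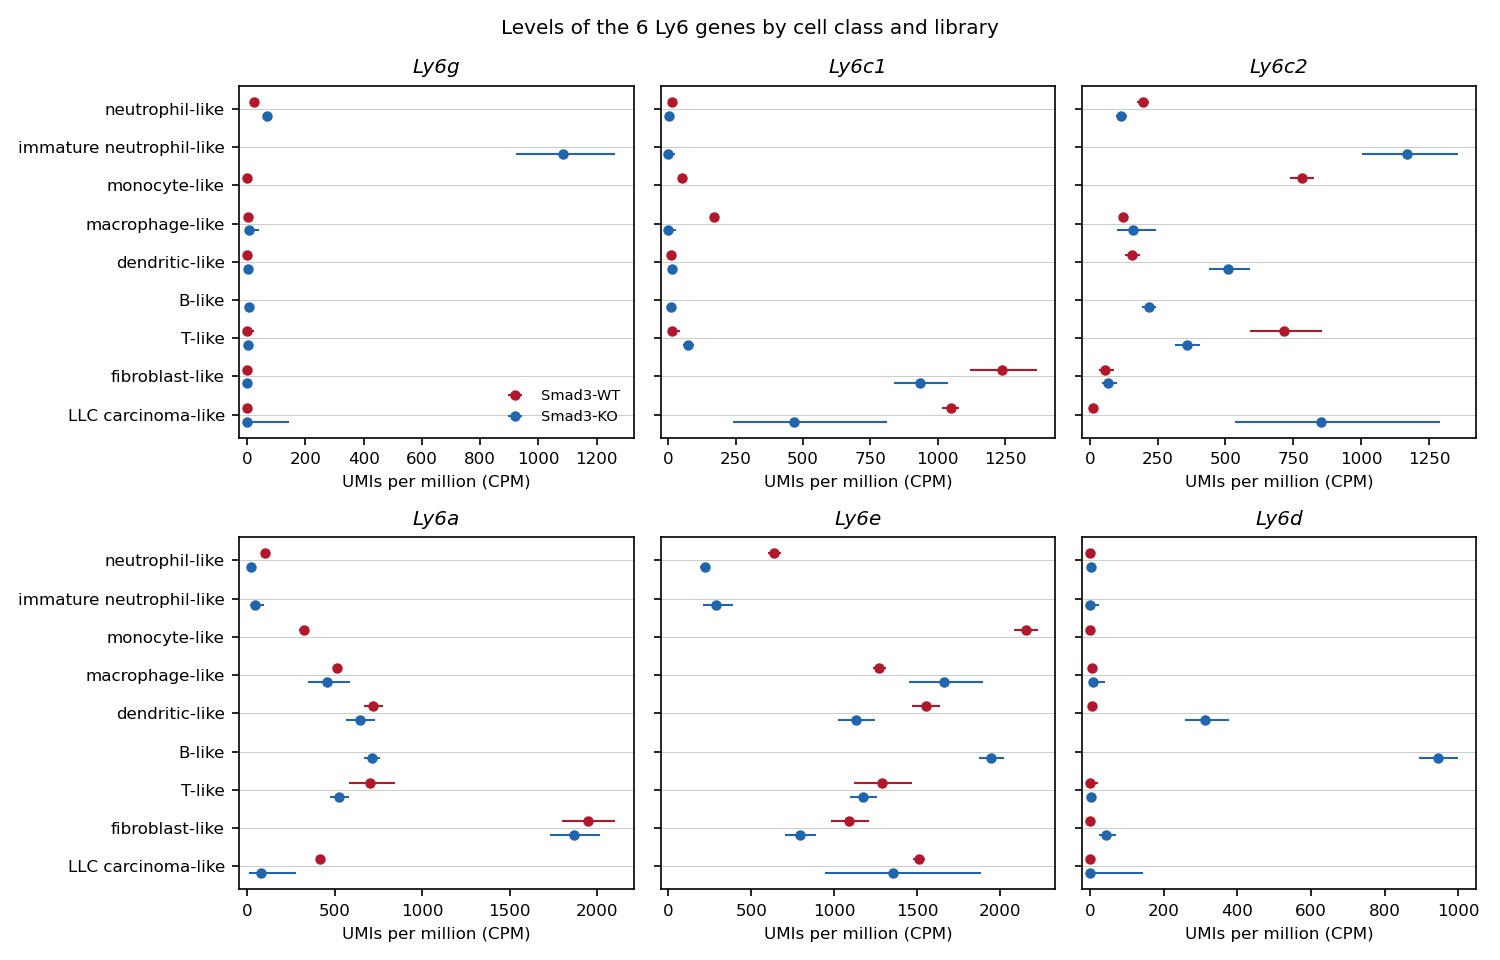
Levels of the 6 members (CPM of summed UMIs, horizontal axes) in the 9 classes by library (red Smad3-WT, blue Smad3-KO, bars 95% Poisson intervals, groups with at least 20 cells). The members peaked in different classes, Ly6g and Ly6c2 in immature neutrophil-like, Ly6c1 and Ly6a in fibroblast-like, Ly6e in monocyte-like and Ly6d in B-like cells.

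Between the genotypes, the members did not move together in neutrophil-like cells. Of 5 members with at least 20 UMIs there, 1 (Ly6g) was at least 2-fold higher in Smad3-KO, 3 (Ly6c1, Ly6a and Ly6e) at least 2-fold lower and 1 (Ly6c2) in between, and Ly6d fell short of 20 UMIs. Of all 5878 genes with at least 20 UMIs in these cells, 7.23% were at least 2-fold higher and 23.8% at least 2-fold lower in Smad3-KO. The median ratio was 0.344 for the members and 0.736 for all genes. Within cluster 3, the ratio was 20.04 for Ly6g, 2.99 for Ly6c2 (interval 1.71 to 5.11), 0.289 for Ly6a and 0.728 for Ly6e, and Ly6c1 had 12 UMIs in Smad3-WT and none in Smad3-KO, with an interval of the ratio up to 1.87. With the immature neutrophil-like cells joined to the class, the ratio was 7.92 for Ly6g, 1.23 for Ly6c2, 0.260 for Ly6a, 0.356 for Ly6e and 0.0560 for Ly6c1. Since 857 of the 1005 Smad3-KO cells lay in cluster 2 and 1206 and 572 of the 1803 Smad3-WT cells in clusters 1 and 3, the genotype, the library and the make-up of the class cannot be told apart.

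Over all filtered cells, the classes that each library held differed, and their part in the ratios was not tested. Ly6d was 97.2 times higher in Smad3-KO (41 against 1357 UMIs, interval 71.3 to 136) and Ly6g 15.2 times (49 against 253 UMIs, interval 11.1 to 21.0), and Ly6c1 stood at 0.237 (5195 against 419 UMIs, interval 0.214 to 0.262). Ly6c2, Ly6a and Ly6e stood at 1.37, 1.20 and 0.799. The Ly6g ratio ran from 4.43 to 27.2 over the alternatives, and the direction turned for Ly6c2 after thinning (0.794) and as a mean over cells (0.731), and for Ly6a among cells with a neutrophil marker UMI (0.768). Thus 2 of the 6 members were at least 2-fold higher and 1 at least 2-fold lower, where 16.4% and 14.8% of 12612 genes with at least 20 UMIs were. B-like cells numbered 682 in Smad3-KO and 3 in Smad3-WT, immature neutrophil-like cells 63 and 1, and LLC carcinoma-like cells 26 and 323. For Ly6a the ratio was 1.20 over all cells and from 0.234 to 0.961 in the 5 classes compared, where the intervals of the macrophage-like, dendritic-like and fibroblast-like cells hold 1. The dendritic-like ratio includes the cells with a Siglech UMI. Without them the levels were 718 CPM in Smad3-WT and 451 CPM in Smad3-KO, and the intervals of these levels did not overlap.

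**Figure D4:**
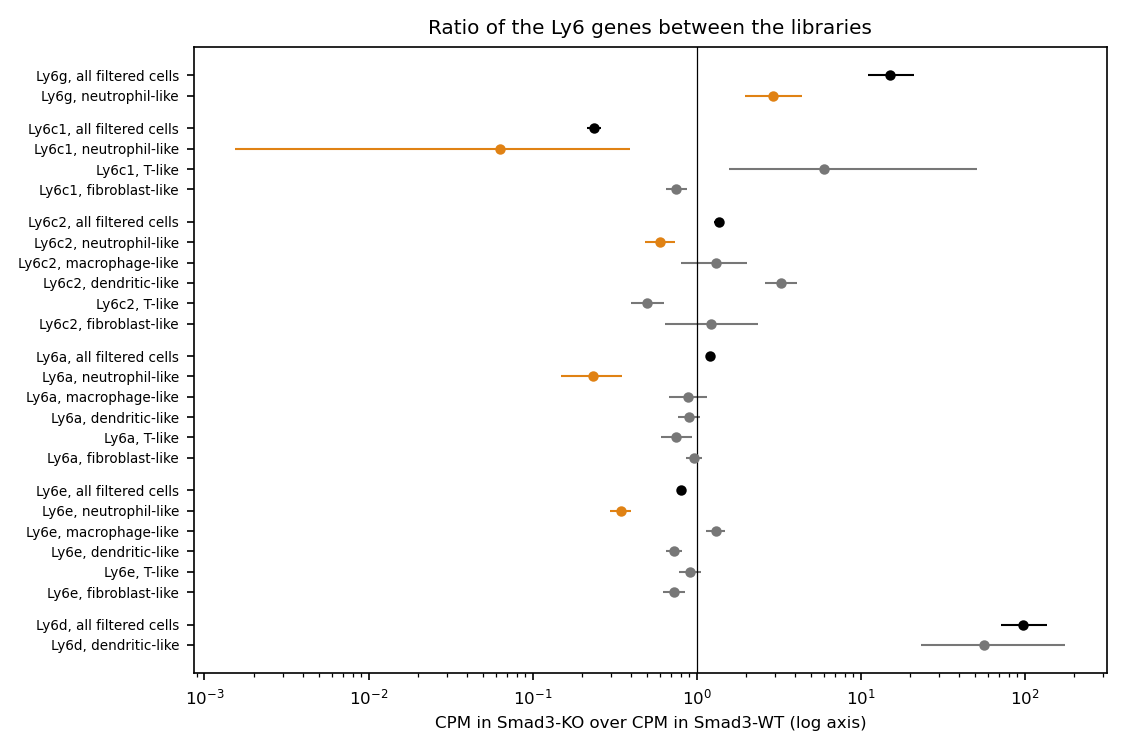
Ratio of the CPM in Smad3-KO to that in Smad3-WT for each member (log axis, bars exact 95% intervals from the split of the UMIs, at least 20 UMIs in all and at least 1 in each library), in all filtered cells (black), neutrophil-like cells (orange) and other classes (gray). Ly6g and Ly6d lay right of 1, whereas neutrophil-like Ly6c1, Ly6c2, Ly6a and Ly6e lay left of it, at 0.0634 to 0.597.

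Little of the rest of the Ly6/uPAR superfamily, whose proteins share the same fold, was seen in these cells. Of 38 other genes, 34 were in the matrix and 4 had at least 20 UMIs in neutrophil-like cells. Plaur, the urokinase receptor, stood at 1951 CPM in Smad3-WT and 1130 CPM in Smad3-KO (ratio 0.579, interval 0.542 to 0.618). Cd177, a surface protein of maturing neutrophils, went from 104 to 8.90 CPM (170 against 10 UMIs, ratio 0.0857, interval 0.0404 to 0.162), and was the only one of the 4 past 2-fold. Of all 5878 genes with at least 20 UMIs there, 7.23% were at least 2-fold higher and 23.8% at least 2-fold lower in Smad3-KO. In the immature neutrophil-like cells Cd177 stood at 1184 CPM (177 UMIs), so it shared the peak of Ly6g there while its ratio in neutrophil-like cells ran the other way. That ratio leaves out these 177 UMIs and rests on 10 in Smad3-KO. The direction of Cd177 with the immature neutrophil-like cells joined was not tested. Ly6i stood at 47.6 and 82.7 CPM (ratio 1.74, interval 1.27 to 2.38), and Bambi at 24.4 and 13.3 CPM.
Over all filtered cells, 6 of these genes had 20 UMIs or more and 3 of them, Lynx1, Cd59a and Cd177, were at least 2-fold higher in Smad3-KO. Of all 12612 genes with at least 20 UMIs, 16.4% were. The classes that each library held differed here too, and their part was not tested.

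Ly6a and Ly6e are known as interferon-induced, so 20 other interferon-stimulated genes were read beside them. In neutrophil-like cells, 19 had at least 20 UMIs, of which 2 (Rsad2 and Stat2) were at least 2-fold higher in Smad3-KO, 1 (Ifit3b) at least 2-fold lower and 16 in between. Of all 5878 genes with at least 20 UMIs there, 7.23% were at least 2-fold higher and 23.8% at least 2-fold lower. The median ratio of the 19 genes was 1.35, against 0.736 for all genes, 0.234 for Ly6a and 0.344 for Ly6e. Isg15, a ubiquitin-like protein that interferons induce, stood at 1959 CPM in Smad3-WT and 3011 CPM in Smad3-KO (ratio 1.54, interval 1.46 to 1.61). Ifi27l2a was lower in Smad3-KO, as Ly6a and Ly6e were, at 1064 and 616 CPM (ratio 0.579, interval 0.529 to 0.632). Over all filtered cells, 7 of 20 were at least 2-fold higher in Smad3-KO and none at least 2-fold lower, where 16.4% and 14.8% of all genes were. The count of those higher ran from 0 after thinning to 15 without the quality filter, and the share of all genes was not computed in these settings.

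The authors' own averages over 13 clusters of all barcodes, both libraries pooled, gave a view without the quality filter and without a split by genotype. Their unit was not given in the sources used here, and each column sums to the median UMIs per barcode. Ly6g was highest in cluster 10 (0.418), led by Camp, Ngp and Ltf, followed at 0.125 by cluster 6, led by Retnlg, H2-Q10 and Cxcr2, and had a median of 0.00296 over the clusters. Ly6c1 was highest in cluster 2 (1.07), led by Col3a1, Col1a1 and Col1a2, and in cluster 11 (0.652), led by Rhox5, Krt8 and Srm. Cluster 2 also held Krt8, at 0.313, so that fibroblasts and tumor cells are not parted there.
Ly6c2 was highest in cluster 5 (0.933), led by Ppbp, Hspb1 and Ms4a4a with 6 of 7 monocyte markers, and its median was 0.247. Ly6a, Ly6e and Ly6d were all highest in cluster 8, led by immunoglobulin genes with 9 of 9 B-cell markers, at 1.11, 3.01 and 1.64. Ly6e averaged 0.740 in cluster 1 and 0.756 in cluster 6, which held 11 of 11 neutrophil markers, and was lowest in cluster 3 (0.206), led by Il1a, Csf3 and Tnfaip3, where 2 of 11 passed. Ly6d was next at 0.533 in cluster 13, a cluster with 10 of 10 dendritic markers in which Siglech stood at 0.320 and the B-cell gene Cd79a at 0.00520.

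**Figure D5:**
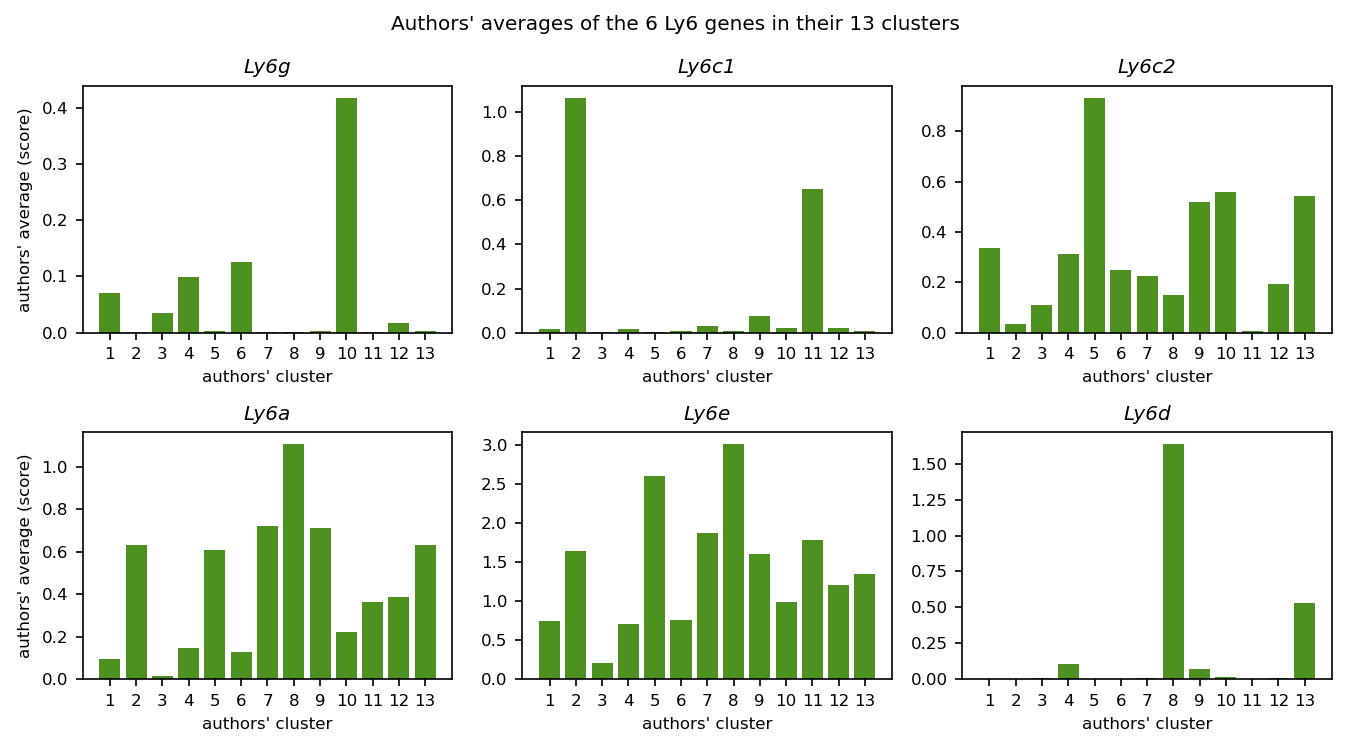
The authors' averages of the 6 members (vertical axes, each column summing to the median UMIs per barcode, from 0) in their 13 clusters of all barcodes, both libraries pooled, so no bar has an error. Ly6g peaked at 0.418 in cluster 10, Ly6c1 at 1.07 in cluster 2, Ly6c2 at 0.933 in cluster 5, and Ly6a, Ly6e and Ly6d in cluster 8.

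Other genes were ranked by how like their pattern was to each member over the 15 groups of class and library with at least 20 cells. The 15 points share 2 libraries and differ in depth, so the correlations only describe. Ly6g was most like Olfm4, Ltf and Wfdc21 (Pearson r of 0.959, 0.957 and 0.923 on log2 values). Olfm4 and Ltf are known from neutrophil granules. Ly6c1 was most like Ppic, Mxra8 and Npdc1 (0.968, 0.960 and 0.956), and Ly6d like Siglecg, Iglc3 and Iglc2 (0.948, 0.925 and 0.923), the last 2 being immunoglobulin light chain genes.
Ly6c2 had no close match, its best being Stxbp2, Arhgdib and Was (0.863, 0.854 and 0.831). Ly6a was most like Mat2a, Trim35 and Dnpep (0.937, 0.930 and 0.928), and Ly6e like Snx5, Isca2 and Papola (0.925, 0.923 and 0.921). Over the authors' 13 clusters, Ly6c1 again ranked Ppic in the first place (0.974, before Angptl2 and Fhl2), and Ly6d ranked Spib, Snn and Iglc3 (0.968, 0.961 and 0.958). Ly6e had Ly6a as its second match there (0.956), between Dctn5 and Spcs1, the only case in which a member was among the 3 genes most like another member.
The first 3 over these clusters were 2900060B14Rik, Mapk13 and Gm20234 for Ly6g, Scand1, Atp6v1f and Cytip for Ly6c2 and Ndufa4, Uqcrh and Mrpl24 for Ly6a, with r from 0.901 to 0.973.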

How the data were processed

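Single cells sorted as CD11b+Ly6G+ from LLC tumors were captured with a 5′ kit, 1 library per genotype from 8 pooled tumors. The authors deposited a matrix of UMI counts, made with Cell Ranger 3.0.2 on mm10 per the submitters' processing notes. The averages of each gene in the 2 libraries, as deposited, are signal values that the authors scaled to the median UMIs per barcode, and the averages in the authors' 13 clusters were read as a score, since their unit was not given in the sources used here, although each column sums to that same median. Columns of log2 fold change and p-value in the deposited tables hold the authors' own comparisons and were not used. The barcode suffix of each library was found by matching its averages to the authors', with largest differences of 4.91e-09 (Smad3-KO) and 3.58e-08 (Smad3-WT) over 19114 genes.

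The quality filter of the study was applied (minimum of 200 genes, mitochondrial share below 10%, UMI total above 500 and below 20000), and the cells were clustered with scanpy 1.11.5 and igraph 0.11.9 (Python 3.11.15) on 2000 variable genes without any Ly6/uPAR gene, 100 components, 15 neighbors, resolution 1 and seed 1. A cluster took the class with most markers, at least 3. Ratios between the libraries and orders of levels use groups of at least 20 cells, and values of smaller sets are given with their number of cells. No doublet caller was run, and 797 of 5953 cells with 2 UMIs of another class were left out in 1 alternative. Levels are sums of UMIs per group with exact Poisson intervals, ratios have exact intervals from the split of the UMIs, and shares have Clopper-Pearson intervals. A list was counted past 2-fold among genes of 20 UMIs or more after 0.5 was added to each sum, and a fold against 0 used 3 UMIs over the group. numpy 2.4.6, scipy 1.17.1, pandas 2.3.3, biopython 1.88 and matplotlib 3.10.9 were used, and the code was tested on simulated data.

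The members, marker lists and gene lists were chosen with earlier results of these data known. Genes named are the 6 members, 38 other superfamily genes, 20 interferon-stimulated genes and, for each member, the 3 genes with the highest Pearson r. Alternatives changed the quality filter, clustering, scaling, depth and gene minimum.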

Additional observations from a re-analysis of the deposited data

Results flagged for a closer look

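Some members differed between Smad3-KO and Smad3-WT in one direction in 1 class and in the other direction in another, each from 1 library per genotype, and none of these differences between classes was tested. Ly6c1 was higher in Smad3-KO in T-like cells, with a ratio of 5.99, but lower in neutrophil-like cells (0.0634) and in fibroblast-like cells (0.753). In macrophage-like cells the Ly6c1 ratio was 0, with no UMI in 48 Smad3-KO cells. After thinning, the interval for the share of those cells with a UMI reached 7.40% and so held the Smad3-WT share of 3.30%. The T-like ratio rests on 2 Smad3-WT UMIs. In Smad3-WT, Ly6c1 stood at 0.162 of its LLC level in macrophage-like cells (LLC markers 0.133 to 0.222). It stood at 0.0134 in neutrophil-like cells (markers 0.0169 to 0.0405). LLC carcinoma-like cells numbered 323 in Smad3-WT and 26 in Smad3-KO, and the part of their RNA was not tested. Ly6c2 was higher in Smad3-KO in dendritic-like cells, with a ratio of 3.28, which was 1.95 without the cells with a Siglech UMI. Of the 100 Ly6c2 UMIs of the remaining dendritic-like cells of Smad3-KO, 37 came from 1 cell. In T-like cells the Ly6c2 ratio was 0.501. Of the 118 Ly6c2 UMIs of Smad3-WT T-like cells, 44 came from 1 cell. In neutrophil-like cells the Ly6c2 ratio was 0.597, but 1.23 with immature cells joined, 1.12 at resolution 0.1 and 2.99 within cluster 3, so that its direction is not settled. Ly6e was higher in macrophage-like cells, with a ratio of 1.31, but lower in neutrophil-like (0.344), dendritic-like (0.729) and fibroblast-like cells (0.728). The macrophage-like ratio was 1.25 (interval 1.07 to 1.45) without barcodes found in both libraries. Of the 218 Ly6e UMIs of macrophage-like cells of Smad3-KO, 39 came from 1 cell.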

How the results depend on the processing

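No paired analysis was possible because each genotype has 1 library. No library was left out for the same reason, and shallow neutrophil-like cells (medians of 742 and 991 UMIs) limit what a 0 shows. Leaving out shared barcodes and joining the immature neutrophil-like cells to the neutrophil-like class were chosen after seeing the data.

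The ratio of Ly6c2 in neutrophil-like cells turned from 0.597 to 1.12 at resolution 0.1 and to 1.23 with immature cells joined, and was 0.480 with Ly6 genes among the variable genes and 0.819 under median-of-ratios scaling. That of Ly6g rose to 9.31 and 7.92 under the first 2 of these settings. That of Ly6c1 was 0 after thinning to 500 UMIs, and that of Ly6e was 0.472 under median-of-ratios scaling and 0.417 after thinning. Ly6a in neutrophil-like cells kept its direction in 15 of 15 alternatives, from 0.182 to 0.321. Over all filtered cells, Ly6c2 turned from 1.37 to 0.731 as a mean over cells and to 0.794 after thinning, and Ly6a from 1.20 to 0.768 among cells with a neutrophil marker UMI. The causes were not tested.

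For the alternatives below, the share of all genes past 2-fold was not computed, so these counts cannot be read as results about the lists. In the main setting, 7.23% of all genes were higher and 23.8% lower in neutrophil-like cells, and 16.4% and 14.8% over all cells. In neutrophil-like cells, superfamily genes at least 2-fold higher, members included, numbered 1, but 2 under median-of-ratios scaling, 2 after thinning and 0 with at least 200 UMIs, and those lower numbered 4, but 1 with at least 200 UMIs. Interferon-stimulated genes there numbered 2 higher, but 5 under median-of-ratios scaling, 1 among cells of at least 1000 UMIs and 1 with immature cells joined, and 1 lower, but 0 under median-of-ratios scaling. Over all cells, superfamily genes numbered 5 higher, but 2 after thinning, 3 with at least 200 UMIs and 9 with at least 5, and 1 lower, but 3 after thinning. Interferon-stimulated genes there numbered 7 higher, but 15 without the quality filter, 15 with the MetaCell filter of the methods, 4 with totals without mitochondrial and ribosomal protein genes, 0 after thinning and 2 without mixed cells, and 0 lower, but 2 after thinning, 1 without mixed cells and 1 among cells with a neutrophil marker UMI.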
